A study of Homo sapiens with 6 samples.

Results

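The nascent polypeptide-associated complex (NAC) was followed through its 3 genes, NACA for the alpha subunit and BTF3 and BTF3L4 for the alternative beta subunits, out of 60612 genes listed in each table. HCT116, a cell line derived from a human colorectal carcinoma, had been infected with lentivirus for 72 h before RNA was taken. The vector was either LV-NC, called the control here, or LV-SNORA28, which carries SNORA28, an H/ACA-type snoRNA. There were 3 libraries per group, all from this single line and all exposed to virus, so no uninfected cells enter the comparison. The genes were selected on the strong rise of BTF3L4 with SNORA28 in these same libraries. Their differences are therefore given as a description, with no test, and tests are given for other genes.

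NAC is an abundant heterodimer that sits on the ribosome at the exit of the peptide tunnel and is among the earliest factors to meet a growing chain. It keeps the signal recognition particle from binding ribosomes that do not make secretory proteins, and it helps bring enzymes that trim and modify the amino terminus of the chain. BTF3 was first described as a basal transcription factor before its role as the beta subunit was known, and BTF3L4 encodes a closely related protein that can take its place.

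Levels are FPKM, fragments scaled to transcript length and to all mapped fragments of a library. Different genes can be compared per length only as far as the lengths used hold, and these were not given. Between 24231 and 25771 genes per library were above 0 FPKM and between 11664 and 12259 reached 1 FPKM. The number of reads behind a value was not given, so errors are the spread between libraries only, and the labels do not say that the libraries came from separate cultures. The SNORA28 gene was listed at 0.92, 0 and 0.64 FPKM in the controls against 15.01, 13.66 and 15.2 FPKM with SNORA28, which fits the labels. The libraries were made from poly(A) RNA, and whether these reads came from the mature snoRNA was not tested. Of 8 colorectal epithelial markers, 6 were expressed, whereas VIL1 did not exceed 0.04 FPKM and CEACAM5 was at 0 in every library. Of 8 markers of blood, vessel, stromal and muscle cells, 5 did not exceed 0.08 FPKM. COL1A1, at 3.16 to 4.46 FPKM, and DES, at 1.42 to 2.13 FPKM, were expressed and overlapped between groups. ACTA2, of smooth muscle and activated stroma, was at 2.37 ± 0.281 FPKM in LV-NC and 3.66 ± 0.190 FPKM in LV-SNORA28 (SD, n = 3 each). Its groups did not overlap. Of the 3 such markers tested, ACTA2 alone was called higher (adjusted p 0.027 by limma, described below), against 6.81% of all genes called higher. Summed FPKM was 42.7 to 47.7% mitochondrially encoded in the controls and 35.9 to 38.3% with SNORA28. This share moved with the groups, and its part in the values below was not tested beyond rescaling to the nuclear sum.

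The beta subunit genes are similar enough that the sequence decides how far their reads can be told apart. Over 470 aligned coding bases, BTF3L4 and BTF3 shared 356 (75.7%), and their longest identical run was 23 bases. A stretch of 120 bases is shown because it lies in the region that an intronless copy of BTF3L4, the processed pseudogene BTF3L4P2, also holds. It covers coding bases 130 to 249 of BTF3L4. The BTF3L4P2 line is chr2:159003975-159004094 on the plus strand of GRCh38.
BTF3L4: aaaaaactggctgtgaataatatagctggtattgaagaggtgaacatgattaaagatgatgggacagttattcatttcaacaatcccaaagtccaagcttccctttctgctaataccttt
BTF3L4P2: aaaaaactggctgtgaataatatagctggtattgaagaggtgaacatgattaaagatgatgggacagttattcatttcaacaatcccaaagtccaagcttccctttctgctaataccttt
The lines are the same letter for letter. The whole annotated length of the pseudogene, 346 bases, was identical to the BTF3L4 transcript (coding bases 130 to 475), so a read inside it cannot be placed by its letters. In the GENCODE transcripts, 6.77% of the 60-base windows of BTF3L4 occurred in another gene, against 4.85% for BTF3 and 2.59% for NACA. These shares depend on the transcript taken for each gene. That of NACA was a long form of 6387 bases, with 164 of 6328 windows shared. Shorter forms were not counted, so the genes are not ranked by these shares.

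BTF3L4 (ENSG00000134717, GRCh38 chr1:52056199-52090716, plus strand) was the member that stood apart. Its level was 2.22, 2.33 and 2.19 FPKM in the 3 controls against 6.87, 7.34 and 7.41 FPKM in the 3 libraries with SNORA28. All libraries with SNORA28 were above all control libraries. The mean level went from 2.25 ± 0.0737 to 7.21 ± 0.294 FPKM (SD, n = 3 each), a ratio of 3.21. On the log2(FPKM + 1) scale the difference was 1.34 with an SE of 0.07, the 27th highest of 12076 genes tested (those whose mean level was 1 FPKM or more). By mean level, BTF3L4 was at percentile 46.4 of those genes.

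BTF3 (ENSG00000145741, chr5:73498408-73505667, plus strand), the usual beta subunit, had the highest listed FPKM of the 3. Its level was 188.82, 204.4 and 186.67 FPKM in the controls against 195.2, 210.07 and 208.49 FPKM with SNORA28. The groups overlapped, since LV-NC 2 lay above LV-SNORA28 1. Means were 193 ± 9.68 and 205 ± 8.17 FPKM (SD, n = 3 each), and the log2 difference was 0.08 with an SE of 0.06. That is close to the median log2 difference of all genes tested, 0.09, and the mean level put BTF3 at percentile 98.8.

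NACA (ENSG00000196531, chr12:56712305-56731628, minus strand), the gene for the alpha subunit, was listed at 35.23, 24.17 and 33.45 FPKM in the controls against 32.25, 24.95 and 28.76 FPKM with SNORA28. The groups overlapped fully, and replicate 2 was the lowest library of each. Means were 31.0 ± 5.94 and 28.7 ± 3.65 FPKM (SD, n = 3 each), and the log2 difference was -0.10 with an SE of 0.16. Without LV-NC 1 the log2 difference was 0.00, so no direction can be given for NACA. Its mean level was at percentile 90.9 of the genes tested.

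**Figure D1:**
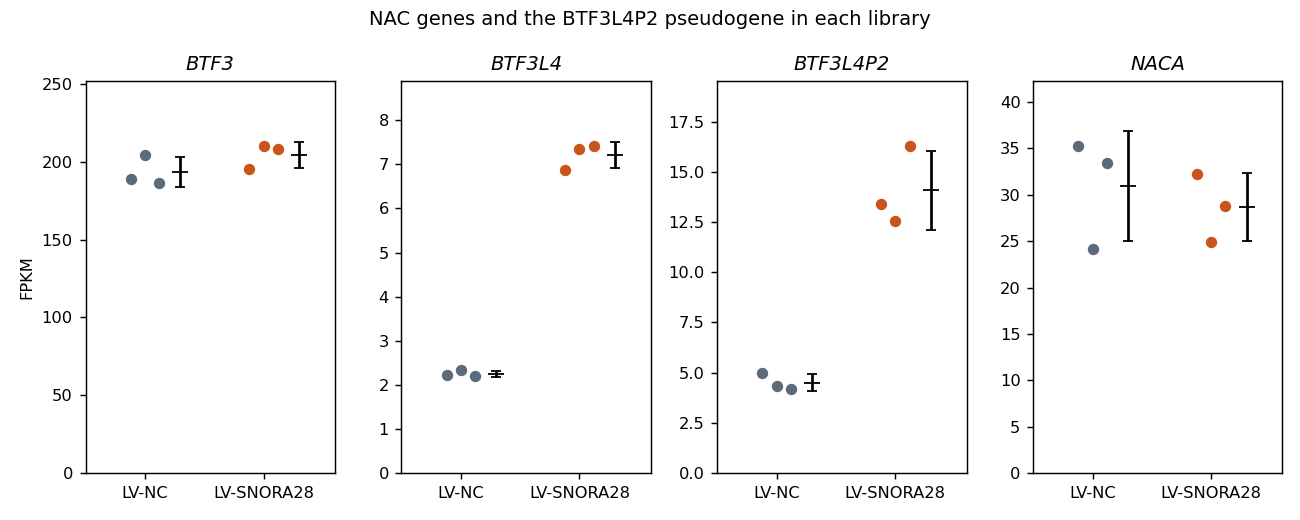
Level in FPKM (y axis, from 0, a separate scale in each panel) of BTF3, BTF3L4, the pseudogene BTF3L4P2 and NACA in the 3 LV-NC and 3 LV-SNORA28 libraries. Points are libraries, and the bar beside them is the mean ± SD. BTF3L4 and BTF3L4P2 show no overlap between groups, with BTF3L4 at 2.19 to 2.33 FPKM against 6.87 to 7.41 FPKM, while BTF3 and NACA overlap.

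Across all genes, limma, a linear model with a pooled estimate of the spread, gave an adjusted p below 0.05 for 8.91% in either direction, for 6.81% as higher and for 2.1% as lower in LV-SNORA28. In 27% of genes tested, every LV-SNORA28 library lay above every control. The share with every LV-SNORA28 library below every control was not counted, so nothing is read from such a separation where it is described below. Of the 3 members, 1 had groups without overlap. It is BTF3L4, whose rise selected the list, so nothing is read from this count.

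**Figure D2:**
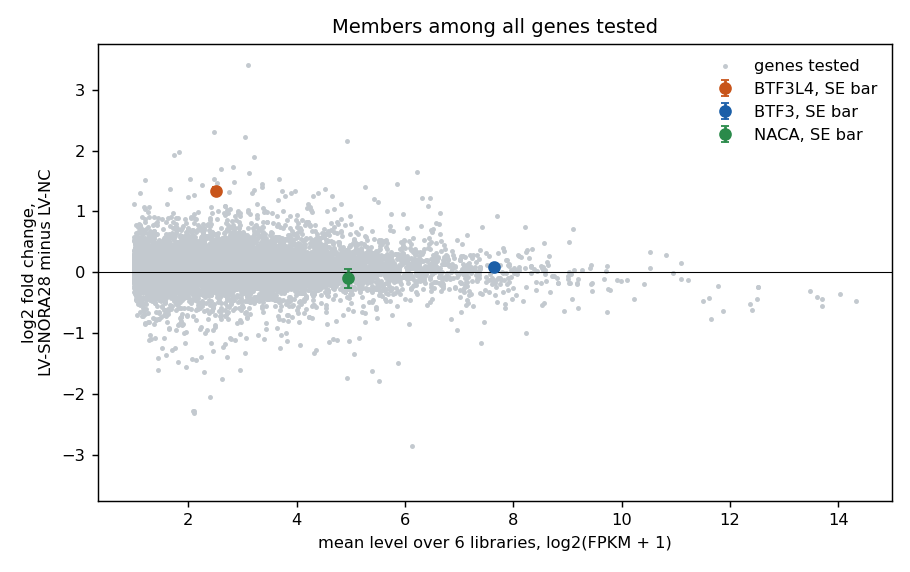
Log2 fold change of LV-SNORA28 over LV-NC on the log2(FPKM + 1) scale (y axis) against the mean level over 6 libraries as log2(FPKM + 1) (x axis) for 12076 genes (grey), with the SE as a bar on the members. BTF3L4 lies at 1.34 near the upper edge at its level, whereas BTF3 (0.08) and NACA (-0.10) lie within the bulk.

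The order of listed FPKM was BTF3, then NACA, then BTF3L4 in each of the 6 libraries, and no neighbours in this order overlapped across libraries. The length that each value was divided by was not given, so this order and the ratios between genes below rest on it. BTF3L4 made up 1.16, 1.13 and 1.16% of the summed BTF3 and BTF3L4 FPKM in LV-NC and 3.40, 3.38 and 3.43% in LV-SNORA28. The share was 1.15 ± 0.0195% against 3.40 ± 0.0281% (SD, n = 3 each). With the FPKM of each pseudogene added to its parent, it was 3.45 ± 0.323% against 9.44 ± 0.727%. Its own variation among replicates was small, although the numerator is the gene chosen for its rise. BTF3 was 86.0 ± 1.49 times as abundant as BTF3L4 in LV-NC and 28.4 ± 0.243 times in LV-SNORA28. With pseudogenes added, these ratios were 28.2 ± 2.63 and 9.64 ± 0.812. FPKM is per length, so adding it overweights BTF3L4P2, of 346 bases, beside a BTF3L4 transcript of 4533 bases. These sums do not reassign shared reads, and how far the share and the ratio rest on their placement was not tested. Because BTF3 dominates the sum, summed beta subunit mRNA was 196 ± 9.75 FPKM in LV-NC and 212 ± 8.45 FPKM in LV-SNORA28, and the groups overlapped. NACA per unit of summed beta subunit mRNA was 0.159 ± 0.0370 in LV-NC and 0.136 ± 0.0225 in LV-SNORA28 (SD, n = 3 each), also with overlap. Protein was not measured, and in these bulk samples more cells with a transcript cannot be told from more RNA per cell.

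BTF3L4P2 (ENSG00000213189, chr2:159003975-159004320, plus strand) was listed at 4.96, 4.35 and 4.2 FPKM in the controls against 13.39, 12.56 and 16.27 FPKM with SNORA28. Every library with SNORA28 was higher, as for BTF3L4. The ratio of the BTF3L4P2 level to the BTF3L4 level was 2.01 ± 0.199 in LV-NC and 1.95 ± 0.242 in LV-SNORA28 (SD, n = 3 each), so the listed levels kept their proportion. Since the sequences printed for both are identical, the pseudogene's values are not a separate observation, and how the quantification divided the reads was not given.

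The other copies held little signal. Of 28 annotated pseudogenes of the members (4 of BTF3L4, 16 of BTF3 and 8 of NACA), 16 were at 0 FPKM in all libraries. A further 11 were above 0 in some library with a mean below 1 FPKM, and none of their single values exceeded 0.97 FPKM. The paralogs were also low. NACA2, an intronless relative of NACA, was at 0 to 0.09 FPKM, and NACAD, which encodes a protein with a NAC domain, was at 0 to 0.05 FPKM.

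NACA shares its locus with a gene that was detected where NACA was low. ENSG00000285625 (chr12:56714612-56741535, minus strand) is annotated as a readthrough gene that overlaps both NACA and PRIM1, and it shares 68 of the 60-base windows of NACA. It was listed at 0, 7.25 and 0 FPKM in the controls against 0, 2.51 and 0 FPKM with SNORA28. The libraries above 0 were LV-NC 2 and LV-SNORA28 2, those with the lowest NACA levels. Added to NACA, a sum chosen after these values were seen, the levels were 35.23, 31.42 and 33.45 FPKM in the controls against 32.25, 27.46 and 28.76 FPKM with SNORA28. The spread in LV-NC was then 33.4 ± 1.91 FPKM in place of 31.0 ± 5.94, LV-SNORA28 was at 29.5 ± 2.48 FPKM (SD, n = 3 each), and the groups still overlapped. How reads were divided between the overlapping genes was not tested.

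**Figure D3:**
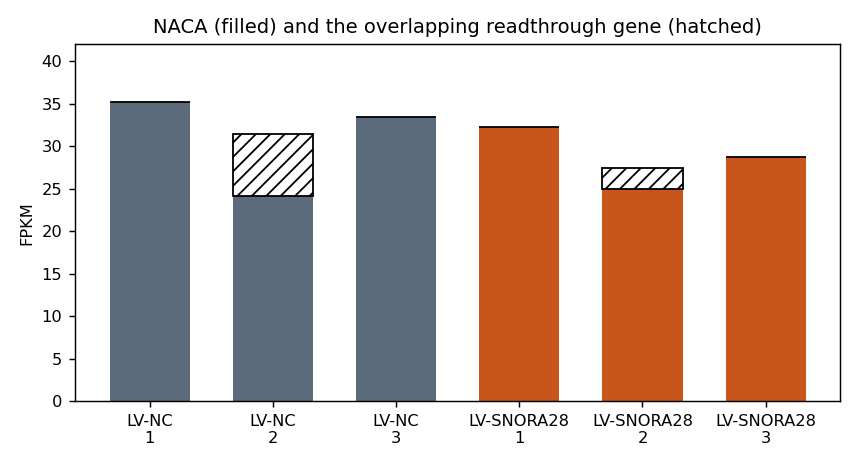
Level in FPKM (y axis, from 0) of NACA (filled, grey for LV-NC and orange for LV-SNORA28) with that of the overlapping readthrough gene ENSG00000285625 stacked on it (hatched) in each of the 6 libraries (x axis). The hatched part appears in replicate 2 of each group, at 7.25 and 2.51 FPKM, where NACA is lowest at 24.17 and 24.95 FPKM.

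The transcripts differ in build as well as in level. The GENCODE transcript used here for BTF3L4 had 4533 bases, of which 477 were coding and 3958 lay in the 3′ UTR. That of BTF3 had 1276 bases with 621 coding and a 3′ UTR of 429 bases. For NACA the transcript had 6387 bases with 6237 coding, and it is the long form known from muscle. NACA has 26 annotated transcripts, the shortest of 343 bases, against 14 for BTF3 and 8 for BTF3L4. The length that each gene value was divided by was not given, so the level of NACA relative to the beta subunits rests on it.

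The promoters of all 3 members held the letters GCCATCTT shortly after the RefSeq start (GRCh38.p14), a form of the recognition motif of the zinc finger factor YY1. The motif was chosen after the sequences were seen. It was searched on both strands in 300 bases, from 250 before the start to 50 after it, and 2.89% of 35116 promoters held it. Sites of 30 bases, read along the gene's strand, are printed with the motif in capitals. They come from chr1:52056315-52056344 (plus strand), chr5:73498441-73498470 (plus strand) and chr12:56725272-56725301 (minus strand).
BTF3L4: tctcggctgaggcaGCCATCTTtctcttgc
BTF3: tccctttagctGCCATCTTgcgtccccgcg
NACA: gtctttctgccGCCATCTTggttccgcgtt
The motif began at base 35 of BTF3L4, base 11 of BTF3 and base 10 of NACA, counting the start as base 1. Whether the motif bears on the levels of these genes was not tested. Binding was not measured in these libraries.

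Genes around the members were examined next. Of all genes, 8.91% were called in either direction, and with so few neighbours tested nothing is read from their counts of calls. Within 100 kb of BTF3L4, 4 of 15 genes could be tested (RAB3B, TXNDC12, KTI12 and ZFYVE9), and none had an adjusted p below 0.05 by limma. TXNDC12, which encodes a thioredoxin-like protein of the endoplasmic reticulum and lies just upstream on the opposite strand, was at 35.05, 37.49 and 35.35 FPKM in the controls against 32.36, 37.17 and 34.8 FPKM with SNORA28. These groups overlapped. KTI12 was at 0.84 FPKM in LV-NC 1 and at 6.28 to 7.32 FPKM elsewhere, and the overlapping gene ENSG00000285839 was at 2.21 FPKM in LV-NC 1 and at no more than 0.03 FPKM elsewhere. Around BTF3, 3 of 9 genes could be tested (FOXD1, ANKRA2 and UTP15) and none passed, and the divergent transcript BTF3-DT was at 0.52 to 1.28 FPKM. Around NACA, 6 of 9 could be tested and 1 passed. This was PRIM1, the catalytic subunit of DNA primase, at 9.08, 9.57 and 9.45 FPKM in the controls against 11.26, 14.79 and 13.04 FPKM with SNORA28. No library of one group reached the other, and the limma adjusted p was 0.047, but PRIM1 overlaps NACA and the readthrough gene on the same strand, so its values are uncertain, and it did not pass after quantile normalization, after scaling to the nuclear FPKM sum, with no filter, with the replicate block, or without any library other than LV-SNORA28 1. ATP5F1B, the beta subunit of mitochondrial ATP synthase, was at 282 ± 38.6 FPKM in LV-NC and at 365 ± 11.2 FPKM in LV-SNORA28 (SD, n = 3 each) and missed the threshold with a limma adjusted p of 0.066.

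The partners of NAC were read from 7 lists of factors that act at the ribosome or on new chains. Together with the paralogs the lists held 79 genes, of which 77 could be tested. In LV-SNORA28, 13 of them (16.9%) were called higher and none lower, against 6.81% of all genes called higher and 2.1% called lower. The median log2 difference was 0.10 against 0.09 for all genes. Of the 77 genes, 66 had a mean of 5 FPKM or more. With that minimum, 15 listed genes and 910 in all were called in either direction, and the share called of all genes was not counted. The shares here and in the lists below are therefore not compared at like levels. Of 6 reference genes often taken as stable, 1 was called higher as well (16.7%), the glycolytic enzyme PGK1 with a log2 difference of 0.34 and a limma adjusted p of 0.025, and their median was 0.11. Without LV-NC 2, LV-SNORA28 2 or LV-SNORA28 3 only 4 listed genes passed, and without LV-NC 1, LV-NC 3 or LV-SNORA28 1 only 6 did. NAA15, CAMLG and HSPA1B passed whichever library was left out. Under quantile normalization, under scaling to the nuclear FPKM sum, and with a minimum mean of 5 FPKM, 2 listed genes were called lower in each case. They were SRPRA, the alpha subunit of the signal recognition particle receptor, and the prefoldin subunit PFDN6. In the fit without these changes their log2 differences were -0.28 and -0.30, and neither passed (limma adjusted p 0.053 and 0.059). Under quantile normalization METAP1, NMT1, TCP1, VBP1 and ANKZF1 did not pass, though HSPA8, CCT7 and CCT3 did.

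Among enzymes that process the amino terminus, 4 of 17 were called higher and none lower, against 6.81% and 2.1% of all genes. NAA15, the subunit that anchors the acetyltransferase NatA to the ribosome, was at 3.95, 3.88 and 4.3 FPKM in the controls against 8.46, 9.36 and 9.72 FPKM with SNORA28. The groups were far apart, with a log2 difference of 1.01, an SE of 0.08 and a limma adjusted p of 0.00271. The catalytic subunit of NatA, NAA10, had a log2 difference of 0.11 and a limma adjusted p of 0.397. Smaller rises were seen for METAP2 (0.35) and METAP1 (0.25), which remove the initiator methionine, and for NMT1 (0.44), which attaches myristate. Their limma adjusted p-values were 0.037, 0.0496 and 0.045, and none of these calls remained when any single library was left out. The other 13 enzymes had log2 differences from -0.27 to 0.41. The lowest was METAP1D, a mitochondrial methionine aminopeptidase, whose LV-SNORA28 libraries all lay below the controls with a limma adjusted p of 0.134.

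Among factors for tail-anchored membrane proteins, 2 of 7 were called higher, against 6.81% of all genes, and both encode the receptor in the membrane of the endoplasmic reticulum. CAMLG was at 7.03, 7.1 and 6.08 FPKM in the controls against 15.4, 16.6 and 17.77 FPKM with SNORA28. Its log2 difference was 1.19 with an SE of 0.08 and a limma adjusted p of 0.0025. GET1, its partner, was low, at 0.64, 0.68 and 0.81 FPKM against 1.83, 2.1 and 1.43 FPKM, with a log2 difference of 0.70 and a limma adjusted p of 0.019, and it overlaps a readthrough gene on the same strand. GET1 passed the minimum of 1 FPKM only through LV-SNORA28, with a mean of 1.79 FPKM there and 0.71 FPKM in LV-NC. Nothing is therefore read from its call or from its part in the count of 2. The call for GET1 remained only without LV-SNORA28 3 when libraries were left out. The remaining 5 genes, all for soluble targeting factors (BAG6, GET3, GET4, UBL4A and SGTA), had log2 differences from -0.11 to 0.14 and did not pass.

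Of 8 genes for Hsp70 chaperones and the ribosome-associated complex, 3 were called higher, against 6.81% of all genes. HSPA1B, a stress-inducible Hsp70, was at 61.86, 62.87 and 75.22 FPKM in the controls against 141.15, 124.02 and 129.67 FPKM with SNORA28. The log2 difference was 0.97 with an SE of 0.09 and a limma adjusted p of 0.00454. Its near-identical neighbour HSPA1A was at 33.56 FPKM in LV-NC 3 and at 1.15 to 4.45 FPKM elsewhere, so the division of reads between them is uncertain. Summed, a step chosen after the values were seen, they were at 63.14, 64.02 and 108.78 FPKM against 144.12, 128.03 and 134.12 FPKM, still without overlap. HSPH1, a nucleotide exchange factor for Hsp70, and DNAJB1, an Hsp40 co-chaperone, had log2 differences of 0.55 and 0.53 and passed limma at adjusted p-values of 0.016 and 0.036. HSPH1 lost its call without LV-NC 2, LV-SNORA28 1 or LV-SNORA28 3, and DNAJB1 kept its call only without LV-SNORA28 1. The subunits of the ribosome-associated complex did not pass, at -0.01 for DNAJC2 and 0.19 for HSPA14.

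Prefoldin and the ring chaperonin TRiC, which receive chains such as actin and tubulin, gave 3 of 14 genes called higher, against 6.81% of all genes. CCT6A (log2 difference 0.50, adjusted p 0.013) and TCP1 (0.32, 0.036) belong to TRiC and VBP1 (0.36, 0.042) to prefoldin, all by limma. Without LV-SNORA28 2 or LV-SNORA28 3, none of these calls remained, and TCP1 lost its call whichever library was left out. Of the whole list, 12 genes had a positive difference, with a median of 0.24. The median of all genes tested was 0.09, so a positive difference was also the more frequent sign among all genes. Ribosome-associated quality control, the clearance of stalled chains, gave 1 of 15 genes (6.67%), about the 6.81% of all genes called higher. This was ANKZF1, a factor that frees the chain from its tRNA, with a log2 difference of 0.36 and a limma adjusted p of 0.048, a call lost whichever library was left out.

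The parts of the ribosome and of the targeting pathway that NAC meets at the tunnel exit gave no calls in the fit described. Of all genes, 8.91% were called in either direction, so with 8 genes per list nothing is read from the lack of calls. None of 8 ribosomal proteins placed around the exit passed, and their log2 differences ran from -0.32 to 0.09 with a median of -0.14. None of 8 genes for the signal recognition particle and its receptor passed, with a median of 0.04. In SRPRA, the receptor subunit called lower under the settings above, all LV-SNORA28 libraries lay below the controls, with a limma adjusted p of 0.053. SRP9, which helps the particle pause translation, was at 75.56 FPKM in LV-NC 2 and at 21.99 to 36.26 FPKM in the other 5 libraries.

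**Figure D4:**
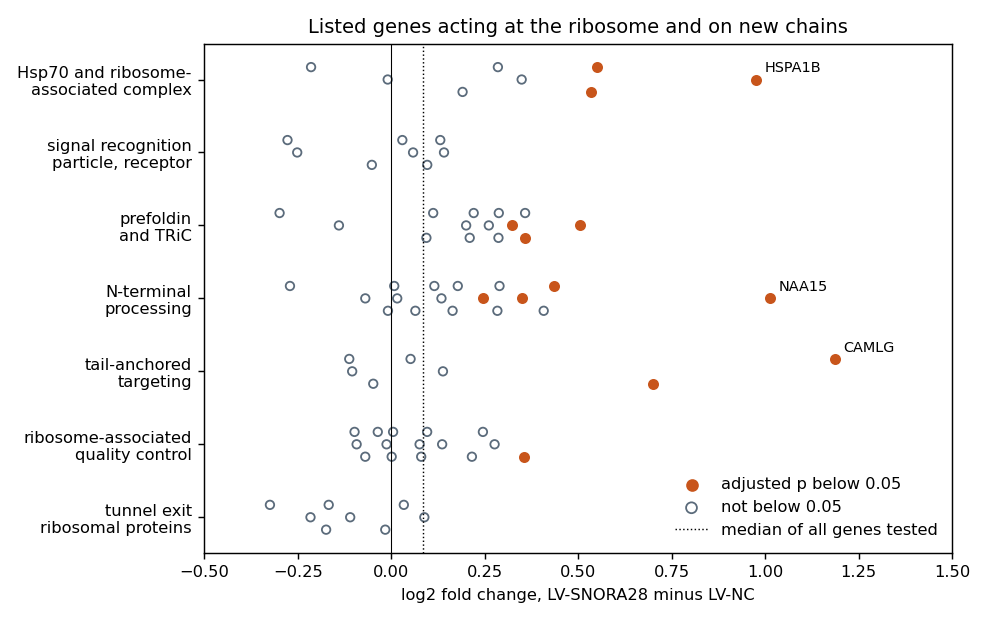
Log2 fold change of LV-SNORA28 over LV-NC on the log2(FPKM + 1) scale (x axis) for the 77 tested genes of 7 lists (y axis). Filled points have a limma adjusted p below 0.05, open points do not, and the dotted line is the median of all genes tested (0.09). The 13 filled points all lie to the right of 0, with CAMLG (1.19), NAA15 (1.01) and HSPA1B (0.97) farthest.

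Genes with the pattern most like each member were named by Pearson's r of log2(FPKM + 1) over the 6 libraries, over genes whose mean level was 5 FPKM or more. For BTF3L4 they were IFT52, GOLM1, C5orf15, MRFAP1L1 and USP16, with r from 0.9975 to 0.999. All had group differences of their own, from 0.42 for USP16 to 1.30 for C5orf15 on the log2 scale, and the points fall into 2 groups of 3 libraries, which sets r high for any gene with a clear difference. For BTF3 they were ENSG00000279088, ENSG00000170846, ZFAS1, COG4 and KCMF1, with r from 0.971 to 0.980. For NACA they were NOTCH1, CRKL, ELFN2, AMMECR1L and MAML1, with r from 0.975 to 0.989. All these r values are the highest of many genes over only 6 libraries, so they are high by selection. NACA was lowest in replicate 2 of each group, where the readthrough gene was detected, and r was not computed for their sum.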

How the data were processed

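Poly(A) RNA was sequenced from HCT116 cells in 6 libraries, stranded and read as paired ends. The authors deposited 1 table per library of FPKM per Ensembl gene. The submitters' processing notes name cutadapt 1.9, HISAT2 2.2.1, StringTie 2.1.6, DESeq2, edgeR and the hg38 build, with no settings. Because FPKM is relative, a shift in abundant transcripts moves all other genes. Read depth was not given, so no counting interval was possible. Of 60612 identifiers, 60401 were given symbols from GENCODE release 44 (GRCh38), perhaps not the annotation that the authors used. No 2 tables were alike. All 12076 genes whose mean level was 1 FPKM or more were fitted as log2(FPKM + 1) with limma 3.58.1 in R 4.3.3, with a mean-variance trend and Benjamini-Hochberg adjustment over all of them. Fold changes on this scale understate those of low genes. P-values measure only the spread between libraries, which may be technical. Named were the members, their paralogs and expressed copies, genes within 100 kb, listed genes with an adjusted p below 0.05 (at most 4 per direction in a list), and 5 genes most like each member. Others named by their values were chosen after those were seen. The members, lists and rules were chosen with earlier results of these data known, and the lists were compiled from general knowledge. Alternatives were a pseudocount of 0.1, other filters, quantile normalization, the nuclear FPKM sum, no trend, the replicate number as a block, and each library left out. Sequences came from GENCODE transcripts, the hg38 genome and RefSeq promoters, and were compared in Python 3.11.15.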

Additional observations from a re-analysis of the deposited data

How the results depend on the processing

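BTF3L4 was higher in LV-SNORA28 under every alternative that could give a value, with a log2 difference of 1.64 at a pseudocount of 0.1, 1.25 after quantile normalization, and 1.32 to 1.37 when each library was left out in turn. Its mean of 4.73 FPKM is below a minimum of 5 FPKM, so that setting gave no value. BTF3 ran from 0.06 to 0.12 and NACA from -0.26 to 0.00 with a library left out. With the pseudogene's FPKM added, which overweights a copy of 346 bases, BTF3L4 made up 3.45% of the beta sum in LV-NC and 9.44% in LV-SNORA28. With no filter on low values 5 listed genes were called in place of 13, and 397 genes in all in place of 1076. Leaving out a library gave 4 to 6 listed genes and 279 to 628 in all. With the replicate block, 8 listed genes and 510 in all were called, but same-numbered libraries did not deviate together (r from -0.04 to 0.09), so the labels share only a number. Quantile normalization gave 451 higher and 375 lower genes in place of 822 and 254, and moved the median of all genes from 0.09 to 0.00. For the 13 listed genes and PRIM1, none of the alternatives run, which leave out the fit with no trend, reversed a direction, 85 values kept their side of the threshold and 81 lost it. NAA15, CAMLG and HSPA1B kept their call under each of these. TCP1, METAP1, METAP2, NMT1 and ANKZF1 lost theirs whichever library was left out, and GET1, DNAJB1, VBP1 and PRIM1 lost it for all but 1 of the 6, HSPH1 for 3 and CCT6A for 2. Unknown depth limits GET1 and other genes near 1 FPKM.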
